A study of Mus musculus with 30 samples.

Results

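The repeats described here are the ERVK families of the mouse genome that are left once its most studied ones are set aside. They were taken from the deposited table of transcription units as every repeat copy whose superfamily is given as ERVK, except families whose names begin with MMERVK10C, RLTR10, IAP, MMETn, ETnERV, RLTRETN, MMERVK9, RLTR9, RLTR13, ERVB4, RLTR44 or RLTR45. This left 180 families with 19898 copies, out of 41885 ERVK copies and 319797 repeat copies in 1065 families. By name they were 12 ERVB, 3 MYSERV, 7 BGLII, 42 RMER and 90 other RLTR families, 1 MERVK and 1 MMTV family, and 24 others such as MMERVK10D3_I-int, MurERV4-int and the MLTR families. The copies were mostly short, with a median length of 408.5 bp, and a family held between 1 and 702 of them. The rule uses names and annotation, not measured values. Some copies lie beside families left out. Of all member copies 6.68% are within 5 kb of an MMERVK10C or RLTR10, IAP or ETn/MusD copy on the same strand. For ERVB7_1-LTR_MM this holds for 298 of its 410 copies.

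Nascent RNA was measured by TT-seq, which isolates and sequences the RNA that takes up 4-thiouridine in a brief pulse, in mouse embryonic stem cells called dTKO, whose genotype is given as Suv39h1fl/fl ; Suv39h2-/- ; Setdb1fl/fl. All groups shared this genotype and grew with LIF and serum on gelatin. The treatment was auxin (100 µg/ml) with dTAG13 (0.5 µM), compounds that trigger the breakdown of degron-tagged proteins. Cells were taken after 3, 12, 24 and 48 h of treatment, against 0 h as the baseline, as 3 libraries per time that the labels call biological repeats. The labels name no degron tag, and the proteins removed are not stated in them.

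ERVK elements are class II endogenous retroviruses, related to betaretroviruses and named for the lysine transfer RNA that primes their reverse transcription. A complete copy has an internal part, with the retroviral genes, between a pair of long terminal repeats (LTRs), which carry the promoter and the polyadenylation signal, and recombination between the LTRs leaves a solo LTR. In mouse embryonic stem cells many ERVK copies are held silent by SETDB1, a histone H3K9 methyltransferase that TRIM28 and KRAB zinc finger proteins bring to them. SUV39H enzymes add further H3K9 methylation at repeats.

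Sequence was at hand where a member copy reached into the promoter window that RefSeq gives for a gene (GRCm38.p6, from 250 bases before to 50 bases after the gene's start, 300 bases in all). Of 32851 such windows, 10 overlapped a tested member copy, 8 of them in the copy's own direction. The 5 windows below are shown because their copies had different courses: the ERVB7 copies at LOC108167564 and Nat8f2 rose, the one at Gm34581 had no called change, and the RLTR17 copies at Platr3 and Cds2 fell. Each runs 5′ to 3′ on the gene's strand, and capitals mark the bases that belong to the repeat copy.
LOC108167564 promoter window: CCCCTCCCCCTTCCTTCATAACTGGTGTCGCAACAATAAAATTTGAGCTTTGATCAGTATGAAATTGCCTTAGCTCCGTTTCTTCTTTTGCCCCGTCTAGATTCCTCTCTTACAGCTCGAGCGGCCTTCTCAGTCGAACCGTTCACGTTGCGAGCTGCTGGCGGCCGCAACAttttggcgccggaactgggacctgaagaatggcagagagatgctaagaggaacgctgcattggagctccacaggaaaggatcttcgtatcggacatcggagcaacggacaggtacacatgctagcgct
Nat8f2 promoter window: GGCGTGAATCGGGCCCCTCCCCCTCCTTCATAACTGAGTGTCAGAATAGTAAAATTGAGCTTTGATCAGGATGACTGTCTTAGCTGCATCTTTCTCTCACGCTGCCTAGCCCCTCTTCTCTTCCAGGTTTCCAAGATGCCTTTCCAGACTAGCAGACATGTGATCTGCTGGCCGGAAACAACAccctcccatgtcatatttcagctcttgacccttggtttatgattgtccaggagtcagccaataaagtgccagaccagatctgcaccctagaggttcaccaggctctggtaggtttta
Gm34581 promoter window: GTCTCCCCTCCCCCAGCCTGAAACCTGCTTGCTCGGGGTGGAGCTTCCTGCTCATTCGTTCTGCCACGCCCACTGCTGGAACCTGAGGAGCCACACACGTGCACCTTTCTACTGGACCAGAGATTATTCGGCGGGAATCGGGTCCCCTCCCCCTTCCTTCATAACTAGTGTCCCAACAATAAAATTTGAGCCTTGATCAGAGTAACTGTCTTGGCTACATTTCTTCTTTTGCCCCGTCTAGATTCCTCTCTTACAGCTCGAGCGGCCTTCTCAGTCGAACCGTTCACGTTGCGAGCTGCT
Platr3 promoter window: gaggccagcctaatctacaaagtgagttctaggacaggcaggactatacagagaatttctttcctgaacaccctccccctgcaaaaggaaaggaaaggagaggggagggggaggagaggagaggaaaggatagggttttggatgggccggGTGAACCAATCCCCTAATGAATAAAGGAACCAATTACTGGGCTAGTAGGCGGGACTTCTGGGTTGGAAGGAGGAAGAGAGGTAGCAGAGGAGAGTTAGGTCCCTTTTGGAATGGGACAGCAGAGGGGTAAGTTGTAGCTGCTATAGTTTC
Cds2 promoter window: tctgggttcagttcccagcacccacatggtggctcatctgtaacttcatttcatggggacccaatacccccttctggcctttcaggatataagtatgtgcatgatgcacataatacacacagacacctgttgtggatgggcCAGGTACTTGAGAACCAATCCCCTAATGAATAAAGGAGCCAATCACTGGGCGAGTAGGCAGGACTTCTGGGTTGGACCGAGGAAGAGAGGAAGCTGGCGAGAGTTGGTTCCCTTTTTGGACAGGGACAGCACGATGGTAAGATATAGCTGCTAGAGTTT
The LOC108167564 window (chr8:128753485-128753784, minus strand) holds the last 172 bases of an ERVB7_1-LTR_MM copy, that of Nat8f2 (chr6:85869088-85869387, minus strand) the last 183 bases of an ERVB7_2B-LTR_MM copy, and both stretches end in CA, the usual end of a retroviral LTR. Past the LTR at LOC108167564, after 3 further bases, stand the letters TGGCGCC, with which a binding site for the lysine primer begins; 4.03% of all windows hold these letters on either strand. The Gm34581 window (chr12:50980463-50980762, plus strand) lies wholly inside another ERVB7_1-LTR_MM copy, which was 94.3% identical to the LOC108167564 copy over 157 aligned bases and 78.5% identical to the Nat8f2 copy over 163. The RLTR17 parts at Platr3 (chr2:135646273-135646572, plus strand) and Cds2 (chr2:132285689-132285988, plus strand) were 87.2% identical over 148 aligned bases. Each of the 2 holds the letters CCAAT 2 times in the gene's direction, in a part of 150 and 159 bases; on either strand CCAAT stands in 37.4% of all windows. The polyadenylation signal AATAAA, found in 19.6% of windows, stands in the gene's direction in the repeat part of each of the 5 except that of Nat8f2, and TATAAA, found in 13.6%, in none of the 5 in that direction.

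Values are reads divided by the authors' size factor of the library, called scaled reads, and each mean is over 3 libraries with its SD. A library held 37.1 to 42.3 M recovered reads over all units, and 45.8 to 65.4 K in the member copies, which held 3.18% to 3.22% of all reads in repeats at 48 h and 5.48% to 5.58% at 0 h. The 9 embryonic stem cell markers were all detected, with a summed level of 10990 to 11568 scaled reads at 48 h and 16213 to 17903 at 0 h. The sum of 7 fibroblast markers was 389.9 to 545 at 48 h and 285 to 359 at 0 h, that of 5 trophectoderm markers 503 to 647 and 383 to 414, and that of 5 primitive endoderm markers 447 to 502 and 417 to 456. The sum of 5 markers of 2-cell-like cells was 1254 to 1492 at 48 h and 31.7 to 39.4 at 0 h. No marker was at 0 in all libraries. The part of these markers in the results below was not tested, and fewer cells of a type and less RNA per cell cannot be told apart in such samples.

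The summed signal of all members was 40.1 ± 2.31 K scaled reads before treatment (0 h), 34.2 ± 2.43 K after 3 h, 52.1 ± 6.54 K after 12 h, 49.6 ± 7.60 K after 24 h and 48.9 ± 1.99 K after 48 h. A family was taken as the sum of its copies, and 165 of the 180 families, those with a mean of at least 10 scaled reads over the 15 libraries, were tested. The other 15 held 114 copies. Calls are a Benjamini-Hochberg adjusted p under 0.05 in limma over all 774 tested repeat families, on log2(scaled reads + 1).

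At 3 h 1 member family was called up and 6 down, against 1.55% and 1.94% of all tested repeat families. The counts were 52 up and 1 down for 12 h (all families, 32.9% and 0.388%), 36 up and 1 down for 24 h (24.4% and 1.03%), and 34 up and 13 down for 48 h (23.4% and 4.91%). As shares of the 165, these counts were 0.606% and 3.64%, 31.5% and 0.606%, 21.8% and 0.606%, and 20.6% and 7.88%. The members' median log2 change was -0.23, 0.29, 0.09 and -0.02 at the 4 times, beside -0.23, 0.29, 0.11 and 0.01 for all 774 families. Of the 34 families up at 48 h all had their 3 libraries at 48 h above the 3 at 0 h, and of the 13 down 12 had them below. These comparisons share the 0 h libraries.

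The split into up and down depended on the scaling. When the libraries were rescaled to equal medians over genes, the median change of all families moved to 0.00, 0.11, 0.18 and 0.37 at the 4 times. The calls among members became 7 up and 0 down for 3 h, 41 and 2 for 12 h, 61 and 2 for 24 h, and 102 and 4 for 48 h, against 5.04% and 0.129%, 27.5% and 1.55%, 39.4% and 1.42%, and 64.5% and 1.42% of all families. The 34 families up at 48 h all stayed up, and 4 of the 13 down stayed down.

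At 12 h against 3 h 131 member families (79.4%) were up and 0 down, beside 77.8% and 0% of all families; 132 had an unadjusted p under 0.05, and edgeR also called 131 and 0. At 24 h against 12 h 6 were up and 6 down (6.85% and 2.71%), and at 48 h against 24 h 0 were up and 1, RLTR11D, was down (4.01% and 0.388%), with 21 at an unadjusted p under 0.05 and 0 up and 1 down in edgeR. After rescaling these splits were 38 and 1, 32 and 3, and 56 and 0, against 26.4% and 1.68%, 21.2% and 1.16%, and 42.8% and 0%. On the deposited scaling, the highest fitted level after treatment came at 12 h for 113 of the 165 families, at 24 h for 19 and at 48 h for 33. Among the 34 families up at 48 h it came at 48 h for 22, at 24 h for 7 and at 12 h for 5. These peak times were not counted over all repeat families or after rescaling. The members' median change after rescaling was 0.01, 0.11, 0.17 and 0.34 at 3, 12, 24 and 48 h, so it was highest at 48 h.

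**Figure D1:**
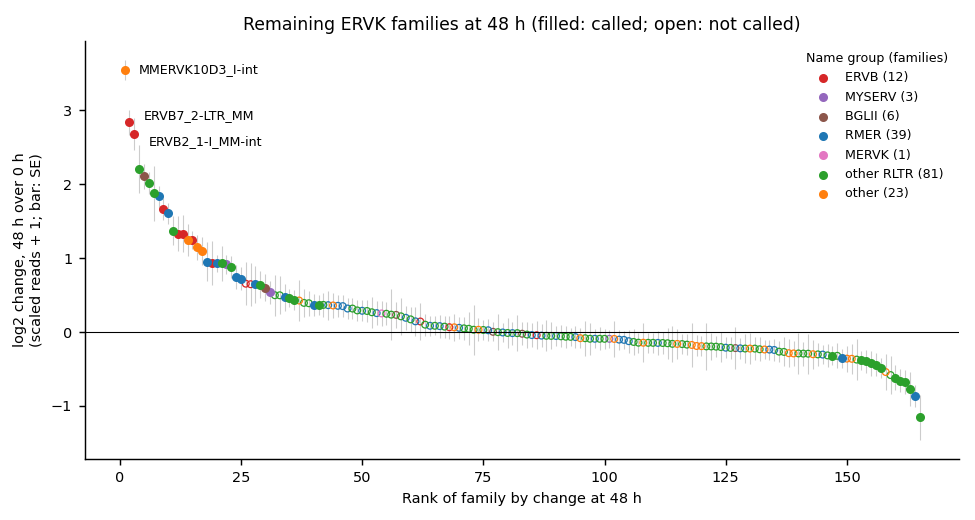
Log2 change at 48 h over 0 h (y axis, with SE) of the 165 tested families, ranked from the largest increase to the largest decrease (x axis) and coloured by name group. Filled points are called: 34 up, led by MMERVK10D3_I-int at 3.55, and 13 down towards the right end, while families between them and some among them were not called.

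Of the families with ERVB names 7 of 12 were up and 0 down at 48 h, with a median log2 change of 1.09, which was 1.45 after rescaling. Of the rest 2 of 3 MYSERV, 2 of 6 BGLII, 9 of 39 RMER, 10 of 81 other RLTR and 4 of 23 other families were up, 2 RMER and 11 other RLTR families were down, and the 1 MERVK family was not called. Over all tested repeat families 23.4% were up and 4.91% down. Internal families had 7 up and 1 down of 20, with a median of 0.34, and LTR families 27 up and 12 down of 145, with a median of -0.05. After rescaling these medians were 0.70 and 0.31. The 15 RLTR20 families had a median of -0.22, which became 0.14 after rescaling.

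Among the internal parts, MMERVK10D3_I-int led the ranking at every time. Its 136 copies summed to 93.5, 97.3 and 83.2 scaled reads in the libraries of 0 h, 167, 148 and 171 in those of 3 h, 424, 494 and 469 in those of 12 h, 791, 963 and 726 in those of 24 h and 1035, 1135 and 1062 in those of 48 h. No library at any later time overlapped those at 0 h, and it was the 1 member family called up at 3 h. Its log2 change was 0.82 at 3 h (SE 0.14, limma adjusted p 5.52e-07), 2.33 at 12 h, 3.16 at 24 h and 3.55 at 48 h (SE 0.14, limma adjusted p 1.32e-137). Of its copies 59 lay within 5 kb of an MMERVK10C or RLTR10, IAP or ETn/MusD copy on the same strand, and without these the change at 48 h was 2.31 (limma adjusted p 2.19e-43). The internal part of MMERVK10C itself, a non-member, changed by 5.76 at 48 h and by 1.42 at 3 h.

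ERVB2_1-I_MM-int, with 15 copies, had 87.1, 118 and 116 scaled reads at 48 h, against 17.1, 12.5 and 18.003 at 0 h. It rose by 2.68 on the log2 scale (SE 0.21, limma adjusted p 3.26e-34), and its largest copy held 57.3% of its signal over all libraries, without which the rise was 2.47. RMER16-int, the RMER family with the most signal, had 4966, 5771 and 5272 scaled reads in 505 copies at 48 h, against 2715, 3054 and 2638 at 0 h. Its libraries were separate from those at 0 h at 3 h (2339, 2075 and 2407, all lower, not called) as well as at 12 h (3924, 5023 and 3592, all higher). The log2 change was 0.93 at 48 h (SE 0.12, limma adjusted p 5.96e-14) and 0.63 without the copies near the other families.

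Of the 3 MYSERV internal parts, 2 were called up. MYSERV16_I-int averaged 1101 ± 58.3 scaled reads at 48 h and 583 ± 34.5 at 0 h, and its log2 change was 0.92 (limma adjusted p 8.59e-12, SE 0.13). MYSERV-int averaged 205 ± 13.98 at 48 h and 141 ± 12.8 at 0 h, a rise of 0.54. MYSERV6-int averaged 1028 ± 90.1 at 48 h and 1095 ± 88.9 at 0 h, and its log2 change of -0.09 (limma adjusted p 0.656) became a call of 0.27 after rescaling. MurERV4-int likewise had 573 ± 44.8 at 48 h and 606 ± 39.3 at 0 h, a change of -0.08 that did not pass and a call of 0.28 after rescaling. MERVK26-int was higher at 24 h, with 143 ± 26.1 against 91.1 ± 1.08 at 0 h (log2 0.63, limma adjusted p 0.000828), and its change of 0.25 at 48 h did not pass (limma adjusted p 0.269; 0.61 and called after rescaling). RLTR19-int was the internal family called down at 48 h, with 1137 ± 47.3 scaled reads, against 1486 ± 107 at 0 h, a change of -0.38 that was -0.02 after rescaling and did not pass without 0 h replicate 2 (-0.35), 0 h replicate 3 (-0.36) or 48 h replicate 1 (-0.35).

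**Figure D2:**
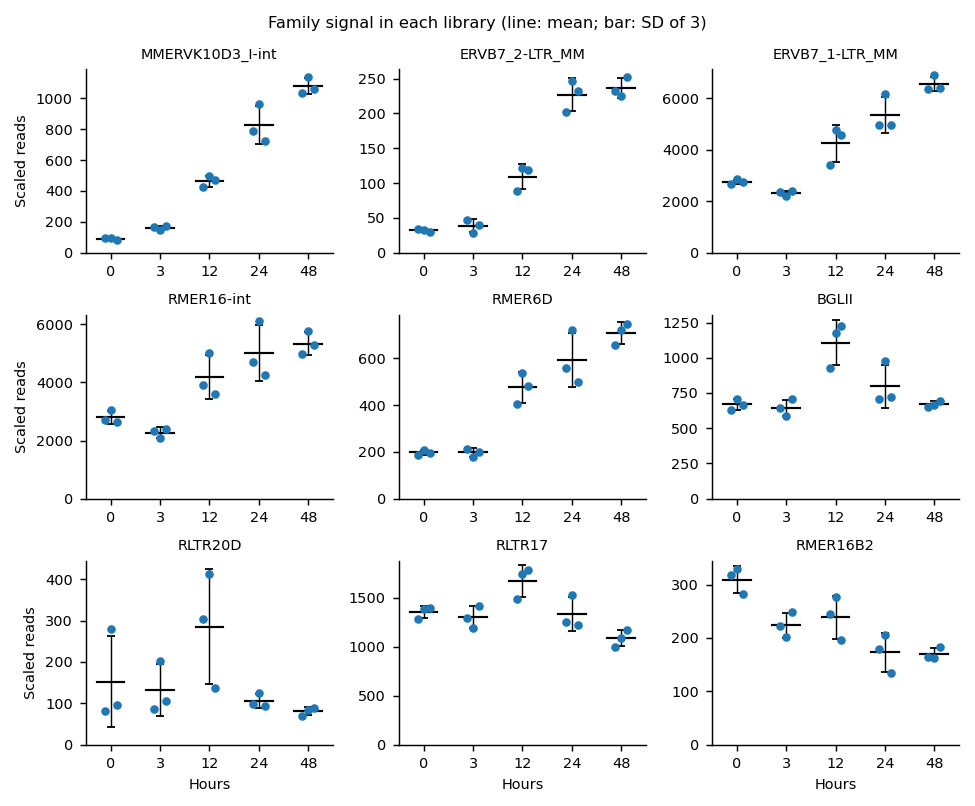
Scaled reads of 9 member families in each of the 15 libraries by hours of treatment (points; line, mean; bar, SD of 3; each y axis starts at 0). MMERVK10D3_I-int reached 1035 to 1135 at 48 h, BGLII was highest at 12 h, RLTR20D varied between the libraries of 0, 3 and 12 h, and RMER16B2 was lower at every later time than at 0 h.

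Of the 5 ERVB7 families, all of them LTRs, 4 were called up at 48 h. ERVB7_2-LTR_MM, with 84 copies, had 34.1, 32.4 and 30.0 scaled reads in the libraries of 0 h, 47.3, 28.6 and 40.3 in those of 3 h, 88.8, 121 and 118 in those of 12 h, 202, 247 and 233 in those of 24 h and 232, 225 and 252 in those of 48 h. All libraries from 12 h on were above those at 0 h, and the level at 48 h was that of 24 h within the spread. Its change at 48 h was 2.84 (SE 0.17, limma adjusted p 9.07e-60), and 2.80 without the copies near the other families.

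ERVB7_1-LTR_MM was the member family with the most signal over all libraries, and per kb of its 410 copies it had 50.4 scaled reads at 48 h and 21.2 at 0 h. It had 2680.1, 2849 and 2744 scaled reads in the libraries of 0 h, 2364, 2189.5 and 2382 in those of 3 h, 3428, 4773 and 4559.9 in those of 12 h, 4952, 6156 and 4952 in those of 24 h and 6373, 6894 and 6411 in those of 48 h. Those at 3 h all lay below 0 h without a call, and those from 12 h on all lay above. The change was 1.25 at 48 h (SE 0.12, limma adjusted p 1.31e-24), and 0.62 without the 298 copies near the other families (limma adjusted p 0.00226).

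ERVB7_2B-LTR_MM had 355, 426 and 397 scaled reads at 48 h, against 117, 121 and 131 at 0 h, a rise of 1.66 (SE 0.15, limma adjusted p 1.07e-27). It lost the call without its 45 copies near the other families, where the change was 0.39 (limma adjusted p 0.111). ERVB7_3-LTR_MM had 43.6, 43.4 and 40.5 at 48 h, against 11.4, 20.0 and 18.9 at 0 h, a rise of 1.33 that was 1.26 without such copies. ERVB7_4-LTR_MM had 26.6, 22.5 and 25.2 at 48 h, against 20.3, 15.8 and 11.1 at 0 h; its change of 0.65 (SE 0.29, limma adjusted p 0.0814) did not pass, and became a call of 1.00 after rescaling. Whether the 5 families differed from each other was not tested.

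Among the RMER and BGLII families, RMER6D had 656, 722 and 747 scaled reads in 169 copies at 48 h, against 188, 208 and 197 at 0 h. The rise of 1.84 (SE 0.14, limma adjusted p 7.21e-39) was 1.67 without its largest copy and 1.87 without the copies near the other families. BGLII_A had 224, 229 and 221 at 48 h, against 51.2, 54.9 and 48.0 at 0 h, a rise of 2.11 (SE 0.17, limma adjusted p 3.82e-35) that was 2.67 without its largest copy. RMER16A3 had 435, 496 and 478 at 48 h, against 147, 176 and 138 at 0 h. Its rise of 1.61 (SE 0.14, limma adjusted p 1.39e-28) was already 1.47 at 12 h, and it was 2.55 without the largest copy, which held 49.8% of the signal.

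The other RLTR families that rose most had few reads or 1 leading copy. RLTR27 averaged 351 ± 4.40 scaled reads at 48 h and 86.7 ± 14.4 at 0 h (log2 2.02), and 1.28 without the copy that held 58.8% of its signal. RLTR31A_Mm averaged 84.5 ± 7.51 and 32.3 ± 5.91 (log2 1.37), and without its largest copy it did not pass, with a change of 0.18 (limma adjusted p 0.649). RLTR1F_Mm averaged 31.4 ± 6.33 and 6.15 ± 2.10 (log2 2.20), and RLTR46A2 17.0 ± 5.71 and 5.03 ± 4.63 (log2 1.88); both were under 10 scaled reads at 0 h and passed the minimum through the later libraries, and without 0 h replicate 1 the change of RLTR46A2 was 1.19. Of the 34 families up at 48 h, 27 were still called up without their largest copy, 27 without the copies near the other families and 32 when only copies that overlap no gene were summed.

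The 20 families up at 48 h that were not named by any of the rules listed under the processing had log2 changes of 0.37 to 1.33. They took in ERVB5_2-LTR_MM (36.0 ± 6.21 at 48 h and 13.6 ± 1.27 at 0 h, log2 1.33) and ERVB5_1-LTR_MM (22.5 ± 7.79 and 10.9 ± 1.67, log2 0.94), and MLTR31A_MM, MLTR18C_MM and MLTR25C at 1.25, 1.14 and 1.10. RLTR11A2 stood among them at 0.46 and was at -0.15 without its largest copy (not called, limma adjusted p 0.452), which lay on chromosome 4 within 5 kb of an RLTR10C copy and had 370 ± 53.5 scaled reads at 48 h and 19.4 ± 4.27 at 0 h.

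**Figure D3:**
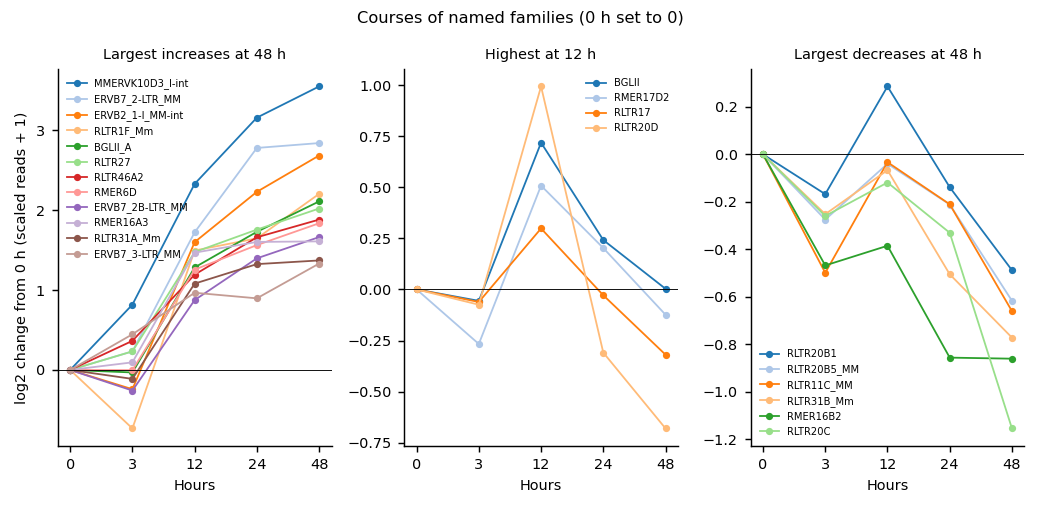
Fitted log2 change from 0 h (y axis) by hours of treatment (x axis, evenly spaced, 0 h set to 0) for the 12 families with the largest increase at 48 h, the 4 called up at 12 h with the strongest decline to 48 h, and the 6 with the largest decrease at 48 h. MMERVK10D3_I-int is the line already at 0.82 at 3 h, and RLTR20D the one at 0.99 at 12 h and -0.68 at 48 h.

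A further course had its high point at 12 h. BGLII had 632, 709.5 and 664 scaled reads in the libraries of 0 h, 641, 587 and 705 in those of 3 h, 925, 1173 and 1225 in those of 12 h, 704, 974 and 718 in those of 24 h and 652, 662 and 694 in those of 48 h. The libraries at 12 h stood above 0 h, those at 48 h among them. It rose by 0.72 at 12 h (SE 0.13, limma adjusted p 2.80e-07), fell by 0.48 at 24 h against 12 h (limma adjusted p 0.00454), and its change at 48 h was 0.00 (0.37 and called after rescaling). RMER17D2 rose by 0.51 at 12 h (208 ± 40.3, against 144 ± 4.33 at 0 h; not called without 12 h replicate 3, at 0.39), and was at -0.12 at 48 h, not called (0.24 and called after rescaling).

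RLTR17 was up by 0.30 at 12 h (1671 ± 162, against 1355 ± 59.5 at 0 h; limma adjusted p 0.0486) and down by 0.32 at 48 h, with 1002, 1092 and 1168 scaled reads, against 1287, 1384 and 1395 at 0 h (limma adjusted p 0.0367). Neither call held after rescaling, where the changes were 0.12 and 0.04, and leaving out a single library ended the call at 12 h in 11 of 15 cases and that at 48 h in 6 of 15. RLTR20D had 81.3, 279 and 95.2 scaled reads in the libraries of 0 h, 87.1, 203 and 105 in those of 3 h, 305, 414 and 137 in those of 12 h, 98.1, 124 and 92.9 in those of 24 h and 69.4, 84.4 and 88.6 in those of 48 h. The libraries of 0, 3 and 12 h varied among themselves and overlapped, and replicate 2 was the highest at each of these times and at 24 h. It was called up by 0.99 at 12 h (limma adjusted p 7.52e-09; 0.81 and not called after rescaling) and down by 0.68 at 48 h (limma adjusted p 0.000132), but without 0 h replicate 2 the change at 48 h was -0.13 (limma adjusted p 0.715) and that at 12 h 1.55. The change at 12 h was 0.66 without 0 h replicate 1 and likewise 0.66 without 12 h replicate 2, both still called. These p-values draw on the spread of families with similar signal more than on that of RLTR20D itself. Its 3 tested copies were 0 up and 0 down at 48 h, beside 26% and 12.3% of all tested repeat copies. The lowest and the median change of these copies were both -2.15, so some may hold the same values.

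The families that fell most at 48 h were LTR families of low or moderate signal. RLTR20C had 13.3, 5.42 and 7.64 scaled reads at 48 h, against 21.1, 20.8 and 17.1 at 0 h, a change of -1.15 (SE 0.30, limma adjusted p 0.000684) that stayed a call of -0.82 after rescaling. RMER16B2 had 319, 329 and 282 scaled reads in the libraries of 0 h, 223, 201 and 248 in those of 3 h, 244, 277 and 196 in those of 12 h, 179.6, 206 and 134 in those of 24 h and 164, 163 and 183 in those of 48 h. It was below 0 h in every later library, by 0.86 on the log2 scale at 48 h (SE 0.15, limma adjusted p 4.36e-08; -0.50 and called after rescaling). A single copy on chromosome 11 (chr11:88968485-88968908, plus strand) held 93.2% of its signal, and the change of all its other copies together was 0.30, not called (limma adjusted p 0.528).

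RLTR11C_MM had 121, 132 and 103 at 48 h, against 185, 191 and 186 at 0 h (log2 -0.66, limma adjusted p 0.000127; -0.30 and called after rescaling), and was also down at 3 h, by 0.50. RLTR20B1 averaged 465 ± 34.7 at 48 h and 654 ± 72.3 at 0 h (log2 -0.49; -0.13 and called after rescaling). RLTR31B_Mm averaged 24.0 ± 3.69 and 41.4 ± 2.41 (log2 -0.77) and RLTR20B5_MM 80.3 ± 9.14 and 123 ± 7.43 (log2 -0.62), and both lost the call after rescaling, at -0.42 and -0.26. Without its largest copy RLTR31B_Mm was at -0.42 and not called. Of the 13 families down at 48 h, 7 were still called down without their largest copy, 12 without the copies near the other families and 10 with only copies that overlap no gene.

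The 6 families down at 3 h changed by -0.68 to -0.47, with adjusted p just under the threshold. RLTR20B4_MM had 26.3, 28.6 and 31.0 scaled reads at 3 h, against 39.8, 53.2 and 47.1 at 0 h (log2 -0.68, limma adjusted p 0.0464), and ERVB3_1-I_MM-int had 46.6, 33.1 and 43.4, against 69.9, 68.2 and 49.7 (log2 -0.60, limma adjusted p 0.0494). For both, the 3 libraries lay below those at 0 h. Neither call held after rescaling (-0.45 and -0.36), and each was lost in 10 of the 15 fits that left out 1 library. The count of 6 became 27 without 24 h replicate 2, and 0 when any 1 of 0 h replicate 2, 3 h replicate 1, 12 h replicate 3, 24 h replicate 1 or the 3 libraries of 48 h was left out. It was 1 to 3 when any other library of 0 or 3 h was left out. The call of MMERVK10D3_I-int held in each of the 15 fits. At 12 h the 52 families up became 34 when replicate 1 of 0 h was left out, 81 when replicate 1 of 12 h was and 30 when replicate 2 of 12 h was.

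**Figure D4:**
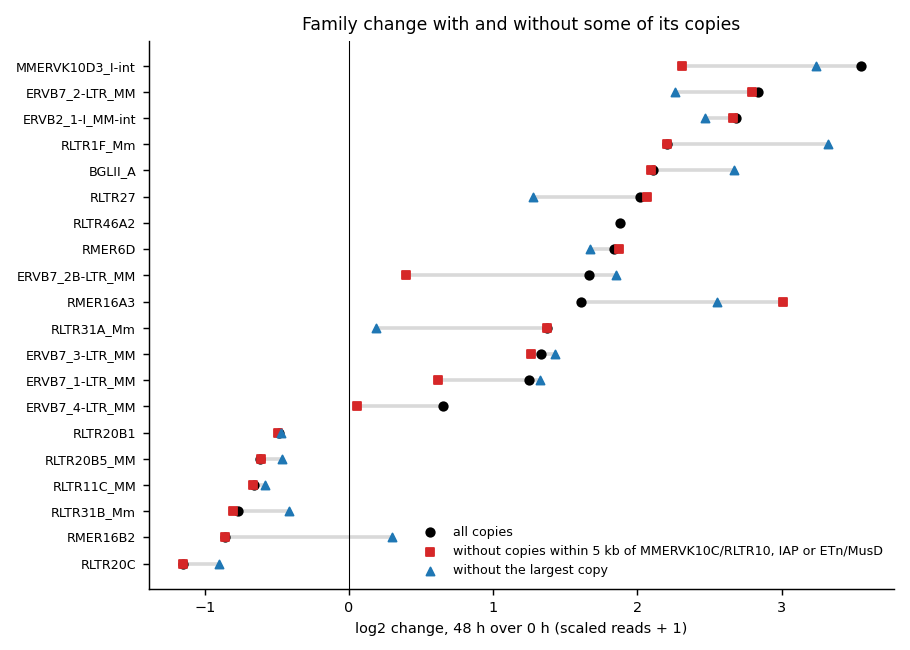
Log2 change at 48 h over 0 h of named families and all ERVB7 families from all copies (black circles), without copies within 5 kb of MMERVK10C or RLTR10, IAP or ETn/MusD copies on the same strand (red squares) and without the largest copy (blue triangles); a marker is missing where the rest had a mean under 10. ERVB7_2B-LTR_MM moves to 0.39 in the first case, and RLTR31A_Mm to 0.18 and RMER16B2 to 0.30 in the second.

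Single copies were tested where their mean over the libraries was at least 10. This held for 762 of the 19898 member copies (3.83%), which carried 60.4% of the members' signal at 48 h and 61.0% at 0 h. At 3 h 10 were called up and 1 down, against 2.5% and 0.266% of all 13519 tested repeat copies. The counts were 152 and 2 for 12 h (20.8% and 1.83%), 164 and 38 for 24 h (25.4% and 6.25%) and 162 and 117 for 48 h (26% and 12.3%). After rescaling the calls were 18 and 0 for 3 h (3.5% and 0.111%), 133 and 20 for 12 h (18.6% and 3.98%), 178 and 36 for 24 h (27.1% and 5.74%) and 198 and 55 for 48 h (31.4% and 5.3%). Between successive times 216 copies were up and 0 down at 12 h against 3 h (26.7% and 0.296%), 41 and 25 at 24 h against 12 h (9.9% and 2%), and 0 and 1 at 48 h against 24 h (0.533% and 0.126%), where 101 had an unadjusted p under 0.05 and edgeR called 0 and 5. After rescaling these were 104 and 4 (14.5% and 2.1%), 66 and 7 (13.9% and 0.584%) and 14 and 3 (3.28% and 0.155%). Of the 762, 150 were under 10 at 0 h and passed through later libraries, so their increases were part of the filter. Among the 612 whose 0 h mean was 10 or more, 2 were up and 1 down at 3 h, against 1.07% and 0.321% of all 9965 such repeat copies. The counts were 48 and 2 for 12 h (7.85% and 2.48%), 37 and 38 for 24 h (7.64% and 8.48%) and 36 and 117 for 48 h (7.58% and 16.7%). The authors' deposited table marks 414 of all member copies as up at 48 h (2.08%, beside 2.48% of all repeat copies) and 65 as down (0.327%, beside 0.330%).

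Of the 762 tested copies 118 lay within 5 kb of an MMERVK10C or RLTR10, IAP or ETn/MusD copy on the same strand, and 63 of these 118 were under 10 scaled reads at 0 h and passed through later libraries. Among copies with at least 10 scaled reads at 0 h, 19 of 55 near ones were up and 7 down at 48 h, and 17 of 557 others were up and 110 down, beside 7.58% and 16.7% of all such repeat copies. Of those 55, the neighbour was itself called up for 16, of which 10 were up and 0 down. Where it was tested and not called, 4 of 18 were up and 4 down. Member copies near these families were 6.68% of all 19898. Whether a copy and its neighbour share 1 transcript was not tested.

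For ERVB7_1-LTR_MM, all 68 of its tested copies were near an ETn/MusD internal copy, 36 nearest to ETnERV-int and 32 to MMETn-int, and 26 of them in contact with it. Of the 68, 38 were under 10 scaled reads at 0 h and passed through later libraries. Among the other 30, 9 were up and 3 down at 48 h, with a median change of 0.10. The 14 of the 30 nearest to ETnERV-int had 5 up and 0 down, and the 16 nearest to MMETn-int had 4 up and 3 down. Where the internal copy was called up, 5 of 9 LTR copies were up and 0 down, and where it was tested and not called, 3 of 14 were up and 2 down. Whether these small groups differed was not tested. The ETnERV-int family as a whole, a non-member, rose by 2.05 at 48 h, and MMETn-int by 1.04.

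**Figure D5:**
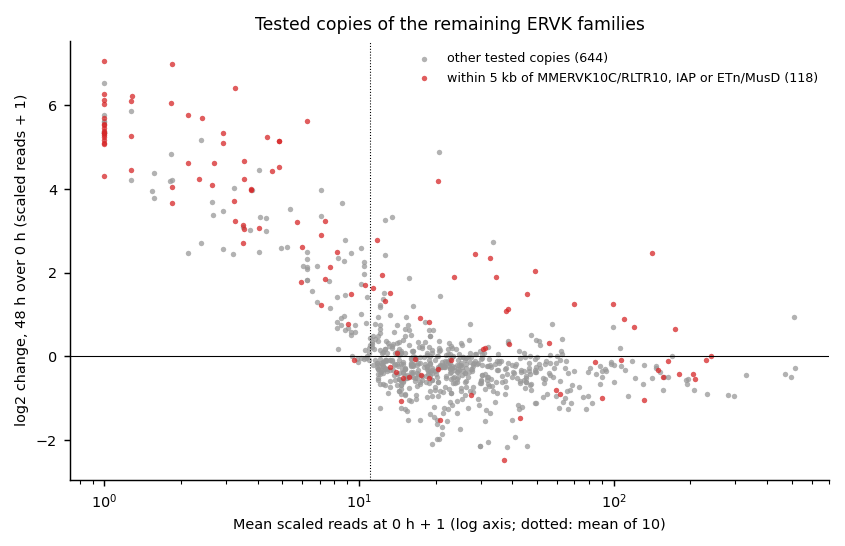
Log2 change at 48 h over 0 h (y axis) of the 762 tested member copies against their mean scaled reads at 0 h plus 1 (x axis, log scale). Red points are the 118 copies within 5 kb of MMERVK10C or RLTR10, IAP or ETn/MusD copies on the same strand; left of the dotted line stand the 150 copies with a mean under 10 at 0 h, which passed the minimum through later libraries.

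The copy with the largest fitted rise was an ERVB7_1-LTR_MM copy on chromosome 4 (chr4:19149446-19149763, plus strand, overlapping no annotated gene and 26919 bp from Cnbd1). It had 123, 144 and 134 scaled reads at 48 h, against 0 reads in each of the 3 libraries at 0 h. The level at 48 h was 159.9-fold an assumed floor of 3 reads over the 3 libraries at 0 h. The lower limit of the exact two-sided 95% interval of the ratio to 0 h, which covers counting error only, was 129.6. This copy passed the minimum through later libraries and was named for its rise, so the rise was part of the choice. At 12 h it already had 19.4, 42.8 and 74.6. It touches an ETnERV-int copy that lies downstream and was itself up by 7.86.

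Of MMERVK10D3_I-int, 11 copies were tested, and 10 of these were under 10 scaled reads at 0 h and passed through later libraries. The remaining copy was up at 48 h, by 1.89. A copy of 4996 bp on chromosome 8 (chr8:123172951-123177946, plus strand), overlapping an exon of the long non-coding RNA gene Gm4316 and overlapping Gm20388, had 219, 246 and 218 scaled reads at 48 h, against 0, 3.33 and 3.43 at 0 h. This one copy held 21.1% of the family's signal at 48 h, and it lies next to an RLTR10D2 LTR upstream. A shorter copy on chromosome 5 (chr5:137861154-137861586, plus strand, intergenic and 3047 bp from Pilrb1) had 200.1, 245 and 208 at 48 h, against 0.813, 0 and 1.71 at 0 h, from 859 and 3 reads, a ratio of 261 with an exact 95% interval of 88.9 to 1266 that covers counting error only.

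Other leading copies stood away from the large families. The largest ERVB7_2-LTR_MM copy (chr16:36116583-36116947, plus strand, intergenic and 2999 bp from Csta1) had 80.5, 91.4 and 81.8 scaled reads at 48 h, against 0.813, 1.66 and 1.71 at 0 h, and held 35.8% of its family's signal at 48 h. A BGLII_A copy on chromosome X (chrX:32214972-32215398, plus strand, intergenic) had 45.0, 58.9 and 42.0 at 48 h, against 0 reads in the 3 libraries at 0 h. Its level at 48 h was 58.3-fold the same assumed floor, and the lower limit of the exact 95% interval of its ratio to 0 h was 46.9. This copy and that of ERVB7_2-LTR_MM passed the minimum through later libraries and were named for their level at 48 h. Their rises were thus part of the choice. The largest RLTR27 copy (chr11:101624510-101624818, plus strand) had 196, 231 and 229, against 26.0, 31.6 and 40.3 at 0 h (log2 change 2.73, SE 0.23, limma adjusted p 1.32e-07), and lies 2377 bp from Rdm1, a gene whose log2 change was 1.69.

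The copies that fell most were each from another family. An ERVB7_1-LTR_MM copy (chr4:124358295-124358613, minus strand) had 2.95, 5.42 and 9.93 scaled reads at 48 h, against 37.4, 44.9 and 25.7 at 0 h, a change of -2.47 (SE 0.69, limma adjusted p 0.00951). An RMER4B copy on chromosome 7 (chr7:98780235-98780370, plus strand) had 7.38, 7.75 and 5.35, against 21.1, 59.1 and 30.9, a change of -2.17 (SE 0.31, limma adjusted p 3.47e-05). An RLTR20B1 copy on chromosome 2 had 27.3, 5.42 and 4.58, against 32.5, 55.7 and 45.4, a change of -2.15 (SE 0.48). In each case the libraries at 48 h lay below those at 0 h.

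Some copies that rose lay close to each other on the genome. Taking copies called up at 48 h and no more than 50 kb apart, 39 of the 162 fell into 10 runs of at least 3. Of the 162, 126 were under 10 scaled reads at 0 h and passed the minimum through later libraries. Runs were not counted for other repeat copies or for copies that were not called, so there is no share to set beside this count. On chromosome 7 (chr7:26663816-26711336, all on the minus strand) 6 copies of ERVB7_2B-LTR_MM, RMER13A, RMER16-int, RMER16A3 and RMER20A summed to 1156 scaled reads at 48 h and 242 at 0 h, and 4 of the 6 were near the large families. On chromosome 9 (chr9:19100444-19104757, plus strand) 5 copies of MLTR31A_MM, RLTR31A_Mm and RLTR51A_Mm summed to 184 and 35.0, with none near. On chromosome 6 (chr6:146791861-146795220, plus strand) copies of MYSERV16_I-int, RLTR20A3_MM and RLTR11B summed to 371 and 6.09, all 3 near an ETn/MusD LTR. On chromosome X (chrX:32493510-32496876, plus strand) 3 copies of BGLII_A and RMER6D summed to 135 at 48 h and had 0 reads at 0 h. Families that share a run are not independent of each other, and 10 tested member copies, 4 of them called up, had the same values in all libraries as another copy.

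At the promoter windows shown above, the ERVB7_1-LTR_MM copy at LOC108167564 had 123, 163 and 171 scaled reads at 48 h, against 18.7, 29.1 and 35.1 at 0 h, a rise of 2.45 (SE 0.26, limma adjusted p 1.40e-06). The ERVB7_2B-LTR_MM copy at Nat8f2 had 41.4, 52.7 and 45.8, against 0, 0.832 and 0 (1 read in all). It passed the minimum through later libraries. Nat8f2, which codes for a member of the N-acetyltransferase 8 family, had 306, 374 and 365 scaled reads at 48 h, against 4.06, 2.495 and 6.001 at 0 h, and rose by 6.13 on the log2 scale (SE 0.20, limma adjusted p 1.92e-204). The ERVB7_1-LTR_MM copy at Gm34581 had 137, 170.4 and 139.8 at 48 h, against 151, 162 and 172 at 0 h, a change of -0.12 (SE 0.18, limma adjusted p 0.647) with overlapping libraries. These 3 copies all lie within 5 kb of an ETnERV-int copy.

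The RLTR17 copy at Platr3, a non-coding transcript gene named for its link with pluripotency, was the largest of its family, with 343, 317 and 387 scaled reads at 48 h, against 435, 465 and 512 at 0 h, a change of -0.43 (SE 0.13, limma adjusted p 0.0185). It held 34.8% of the signal of RLTR17 over all libraries. The RLTR17 copy at Cds2, which codes for a CDP-diacylglycerol synthase, had 27.3, 31.8 and 25.2, against 46.3, 50.7 and 41.1, a change of -0.70 (limma adjusted p 0.0058). Cds2 itself averaged 1575 ± 52.5 at 48 h and 2169 ± 106 at 0 h, a change of -0.46 (SE 0.12). The copy (chr2:132285830-132286418, plus strand) spans the RefSeq start of Cds2 and runs into the gene on the same strand. Reads of the copy and of the gene cannot be told apart there, so these falls are not separate observations. The Platr3 copy likewise runs past the start of its gene on the same strand. In both copies every library at 48 h lay below every library at 0 h. In all, 23 RLTR17 copies were tested, of which 3 were up and 9 down at 48 h, beside 26% and 12.3% of all tested repeat copies. Only 21 of them already reached 10 scaled reads before treatment, and of these 1 was up and 9 down. The shares over all repeat copies that met this level were 7.58% and 16.7%. The rest of the 23 passed the minimum through later libraries.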

How the data were processed

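The deposited tables hold, for each transcription unit, a signal that the authors made by dividing reads by 1 size factor per library, as the values themselves show: 99.9974% to 99.9991% of nonzero values were whole multiples, within 0.05, of a step of 0.636 to 0.936. Per the submitters' processing notes, STAR 2.5.2a, DESeq2 and deepTools were used with mm10/GRCm38; the counter, its strand setting, the annotation and the treatment of reads with several matches are not stated in those sources, so copies of near-identical sequence are uncertain. Each of the 15 libraries was run 2 times (30 samples) and counted once. RNA was labelled with 1 mM 4-thiouridine for 10 min, and 110 µg of total RNA received 1 µg of labelled yeast RNA per the labels' protocols. The p-values rest on the spread between biological repeats, which limma pulls towards its trend with mean signal over all tested repeats. The SE of a family therefore follows its mean signal more than the spread of its own 3 libraries per time. Where a family's own libraries vary more than that trend, its p-value is too small for them.

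Families (sums of copies) and copies with a mean of at least 10 were tested with limma 3.58.1 (R 4.3.3) on log2(scaled reads + 1), all 15 libraries in 1 fit with time as factor, two-sided, Benjamini-Hochberg adjusted over all tested repeats. Fold changes on this scale understate low levels. The script was tested on simulated data. Alternatives were edgeR 4.0.16 on recovered reads, other pseudocounts and minimums, rescaling over genes, leaving out libraries or copies, and a replicate block. Deviations of each library from the mean of its time, over all tested families, were correlated between times. The correlations were -0.102 to 0.143 for same-numbered libraries and -0.123 to 0.143 for differently numbered ones. Such low values do not exclude that the numbers pair libraries, and the main fit treated them as unpaired. Repeat starts, which count from 0 in the table (19573 neighbouring copies begin exactly at the previous end, 2192 1 base later), are printed from 1.

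Named families were the 12 with the largest rise and 6 with the largest fall among calls at 48 h with separate libraries, the 3 with the largest change among calls at 3 h, the 4 called up at 12 h with the strongest decline to 48 h, all ERVB7 families and the family with most signal of each name group. Named copies were the 6 that rose and 3 that fell most, and the largest of leading families. Members and lists were chosen with earlier results of these data known.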

Additional observations from a re-analysis of the deposited data

How the results depend on the processing

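For 51 changes of single families and copies, 1131 of 1220 alternative values kept direction and call, 64 lost the call, 6 gained one and 19 changed sign. Many of these settings could not move the log2 value, only the adjusted p. This holds for leaving out a library of a time not compared, other minimums, a replicate block and the fit of 6 libraries. The count of 1131 therefore says little about how stable the sizes of the changes are. Rescaling over genes turned the 48 h change of ERVB3_1-I_MM-int to 0.31, MYSERV6-int to 0.27, MurERV4-int to 0.28, RLTR17 to 0.0437, RLTR20B4_MM to 0.31 and RMER17D2 to 0.24. BGLII at 48 h, near 0, ranged from -0.0361 to 0.0468 when 1 library was left out, and was at -0.0254 without copies near the large families and -0.0278 with only copies that overlap no gene. ERVB3_1-I_MM-int ranged from -0.1983 to 0.0433 with 1 library left out and was at 0.0337 without near copies. RLTR20B4_MM ranged from -0.1587 to 0.046 with 1 library left out, RMER17D2 was at 0.0332 with only copies that overlap no gene, and without the largest copy MYSERV6-int was at 0.0326 and RMER16B2 at 0.30. The causes were not tested.

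The number of remaining ERVK families called up or down was 7 at 3 h, and 1 with no minimum mean, 27 in a fit of only the 6 libraries compared, 1 without near copies, 4 without the largest copy and 1 to 28 when 1 library was left out (28 without 24 h replicate 2). At 12 h 53 became 31 to 82, namely 34 when replicate 1 of 0 h was left out, 82 when replicate 1 of 12 h was and 31 when replicate 2 of 12 h was. At 24 h 37 became 63 after rescaling and 29 to 40 without 1 library, and at 48 h 47 became 106 after rescaling, 71 in the fit of 6 libraries and 39 to 56 without 1 library. The number of remaining ERVK copies called up or down was 11 at 3 h, and 2 with the minimum set at 0 h alone, 18 after rescaling, 6 in edgeR, 5 to 12 without 1 library (5 without 3 h replicate 1) and 0 in the limma fit of 6 libraries, where 119 had an unadjusted p under 0.05. At 12 h 154 became 34 with the minimum at 0 h alone and 132 to 162 without 1 library, at 24 h 202 became 461 with no minimum, 67 with the minimum at 0 h and 181 to 204 without 1 library, and at 48 h 279 became 799, 149 and 237 to 284. With a replicate block, the up and down calls of families were 1 and 6, 57 and 1, 37 and 1, and 36 and 14 over the 4 times. Whether libraries of the same number are paired was not settled. Of the member copies 3.83% reached the minimum mean, so the others were not tested.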
